A study of Mus musculus with 12 samples.

Results

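The 10 genes described here encode the epithelial inflammasome and its output: *Nlrp6*, *Nlrc4*, *Naip6*, *Pycard*, *Casp1*, *Casp4*, *Gsdmd*, *Il18*, *Il1b* and *Il18bp*. They were taken by name from a table of raw read counts with 34245 genes, and 10 of 10 have a row there. The table holds 12 libraries of RNA from sorted small intestinal cells of male C57BL/6 mice that carry the *Lgr5*-EGFP-IRES-CreERT2 knock-in allele, an allele present in all groups. Intestinal stem cells (ISC) were the GFP-high, DAPI-negative cells of crypts, sorted without a CD45 or CD31 stain. Adult enterocytes (AE) were villus cells with high Epcam and no CD31, CD45 or DAPI stain. There were 3 young ISC, 3 aged ISC, 3 young AE and 3 aged AE libraries, from mice of about 8 months (young) and about 27 months (aged). Libraries are named by the number in their column code, 1, 2 and 3 for young and 1, 3 and 5 for aged mice. The study's methods list 3 animals of each age, and the labels do not tie a library to an animal, so P-values measure the spread between these libraries.

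Inflammasomes are protein complexes that form on a sensor when microbial or danger signals reach the cytosol. NAIP proteins bind bacterial flagellin or secretion system parts and then engage NLRC4, whereas NLRP6 is a sensor of the intestinal epithelium. The adaptor ASC, encoded by *Pycard*, joins sensors to caspase-1, which cleaves gasdermin D and the precursors of IL-1β and IL-18. Cut gasdermin D opens pores in the plasma membrane. Caspase-11, encoded in the mouse by *Casp4*, responds to cytosolic lipopolysaccharide and also cuts gasdermin D. In the gut epithelium these complexes are known for the expulsion of infected enterocytes and the release of IL-18, which the binding protein encoded by *Il18bp* neutralises.

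Library totals ran from 11893817 to 26796461 counts, except for young AE library 3 with 110794420. Levels are given in CPM, counts scaled by library size with TMM factors over all 12 libraries. The limit taken for detection, 3 counts, equals 0.036 to 0.327 CPM. The TMM factors were 1.261 to 1.365 in ISC and 0.7209 to 0.823 in AE. They raise AE levels relative to ISC, compared with counts over library totals. Differences between the cell types depend on this scaling, and no fit on library totals alone was run. The 5 stem cell markers summed to between 5047 and 7426 CPM in ISC and between 47 and 506 CPM in AE. The 6 enterocyte markers summed to between 795 and 5206 CPM in ISC and between 37040 and 60770 CPM in AE, so the labelled cell types carried their markers. RNA of other epithelial lineages was also found. The 5 goblet markers summed to 27410 to 56170 CPM in AE against 1203 to 2029 CPM in ISC. *Muc2* was left out of them because its name has several rows. The 5 enteroendocrine markers summed to 2048 to 4464 CPM in AE against 222 to 663 CPM in ISC. The 5 Paneth markers went the other way, at 34 to 166 CPM in AE against 434 to 1318 CPM in ISC. The 5 tuft markers overlapped, at 133 to 394 CPM in AE and 67.3 to 201 CPM in ISC. The 9 T cell and intraepithelial lymphocyte markers summed to 0.801 to 21.2 CPM in ISC and 17.6 to 54.2 CPM in AE. The 9 monocyte, macrophage and neutrophil markers reached 8.59 to 20.3 CPM in ISC and 12.6 to 24.5 CPM in AE, with *Cx3cr1*, *S100a8*, *S100a9* and *Fcgr3* at or under 3 counts in all libraries. Fewer cells of a type and less RNA per cell cannot be told apart in such bulk RNA. The part of goblet and enteroendocrine RNA in the AE values of the members was not tested.

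The sensor *Naip6* lies in a cluster of close relatives on chromosome 13, and reads were 50 bases long. Among the 6778 distinct 50-base words of its annotated transcripts (GENCODE M21, GRCm38), 21.5% also occur in transcripts of other genes, most often *Naip5*. Because the authors kept uniquely mapped reads, a word such as the following could not be assigned to either gene. It lies in a coding exon of *Naip6* (chr13:100299563-100299612, minus strand) and is identical in a coding exon of *Naip5* (chr13:100222276-100222325).
Naip6 and Naip5: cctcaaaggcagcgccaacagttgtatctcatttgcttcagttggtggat
A short stretch in the same exon of *Naip6* (chr13:100299899-100299948) tells the 4 *Naip* genes described here apart, and is shown because the *Naip* values below rest on such positions. Capitals mark the bases that differ from *Naip6*.
Naip6: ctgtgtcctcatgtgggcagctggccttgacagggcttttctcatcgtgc
Naip5: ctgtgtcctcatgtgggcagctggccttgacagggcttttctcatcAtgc
Naip2: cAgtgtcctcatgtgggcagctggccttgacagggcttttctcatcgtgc
Naip1: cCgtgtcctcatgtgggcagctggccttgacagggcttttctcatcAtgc
The matching stretches are at chr13:100222612-100222661 in *Naip5*, chr13:100161283-100161332 in *Naip2* and chr13:100426544-100426593 in *Naip1*, all in coding exons on the minus strand. The share of 50-base words found in other genes was 36.9% for *Naip5*, 19.1% for *Naip2* and 31.5% for *Naip1*, so levels of this family are uncertain. It was 11.7% for *Pycard*, nearly all with *Gm45205*, and at most 1.09% for each of the other 8 members. Words were matched on both strands, and *Gm45205* overlaps *Pycard* by 599 bases on the other strand. Words from that stretch come from 1 genomic place, unlike those shared between the *Naip* genes.

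AE were compared with ISC at each age, which asks how the inflammasome genes differ between the stem cell and its differentiated progeny. Of the 9 members with enough counts for a test, 6 were higher and 1 was lower in AE of young mice, where 28.9% of 16681 genes tested were higher and 26.7% lower. In aged mice the same split was found, 6 higher and 1 lower of 9, beside 30.6% higher and 34.2% lower of 15855 genes. Genes were tested with the quasi-likelihood method of edgeR and passed at an FDR (Benjamini-Hochberg, over all genes tested) under 0.05. The median log2 fold change of the members was 1.46 in young and 1.49 in aged mice, against 0.15 and -0.13 over all genes tested. *Gsdmd*, *Il18*, *Il18bp*, *Naip6*, *Nlrc4* and *Casp1* were higher in AE at both ages and *Pycard* was lower, while *Nlrp6* and *Casp4* did not pass at either age. The share of all genes whose AE and ISC libraries do not overlap was not counted. Separation of the libraries, where given below, therefore only describes the values of a member.

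**Figure D1:**
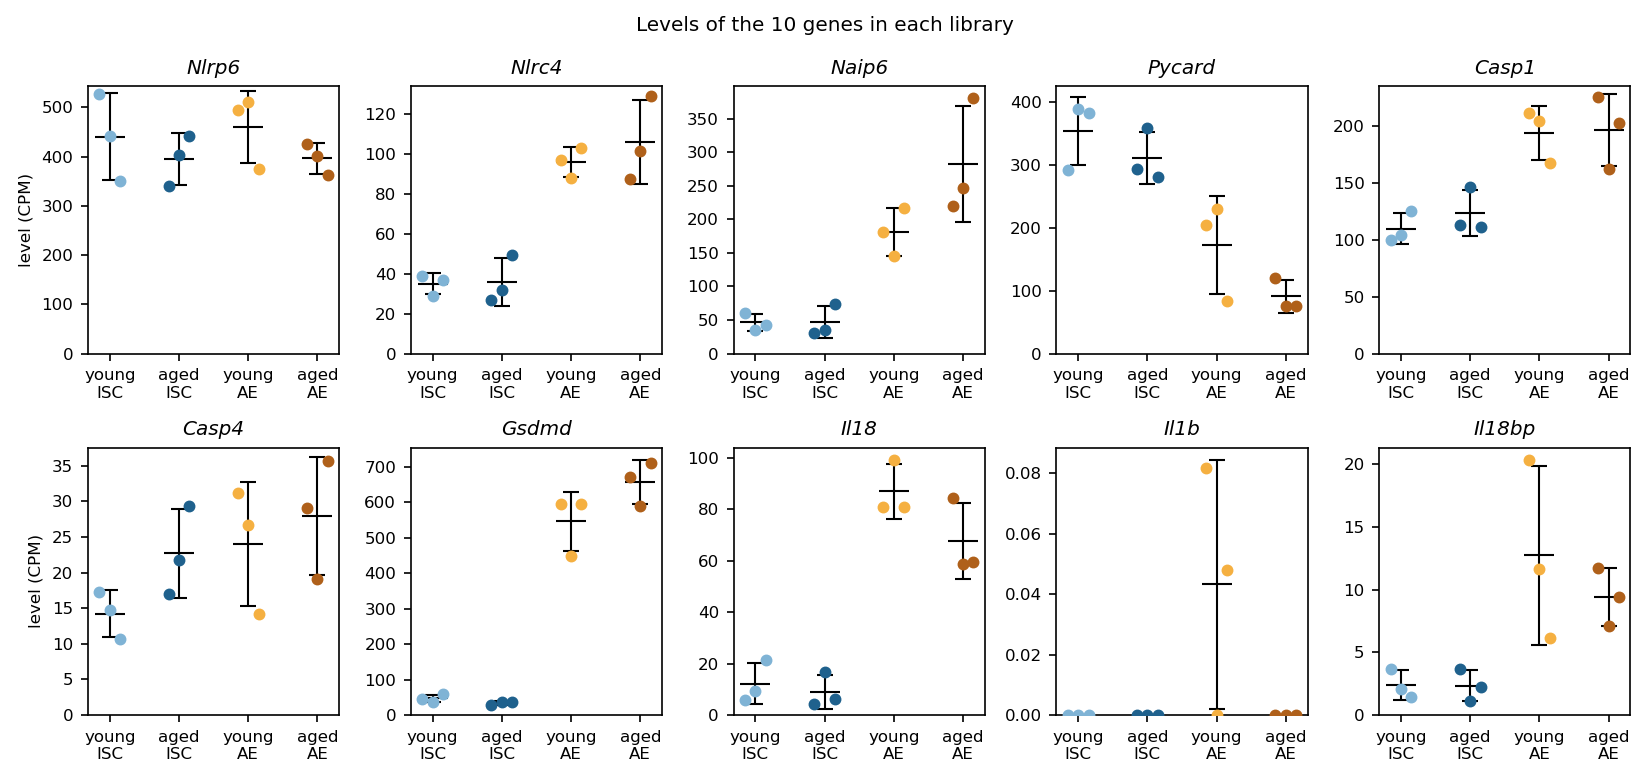
Level in CPM (TMM-scaled, linear axis from 0) of each member in each library, by group. Each point is 1 library, the dash is the mean and the bar 1 SD (n = 3). *Gsdmd*, *Il18*, *Naip6* and *Nlrc4* of all AE libraries lie above those of all ISC libraries, *Nlrp6* overlaps between all groups, and *Pycard* is lower in AE than in ISC.

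*Nlrp6*, a NOD-like receptor expressed in the gut epithelium (chromosome 7, 140920902 to 140929192, plus strand), was at 527, 443 and 351 CPM in the young ISC libraries and 494, 510 and 375 CPM in young AE. In aged mice it was at 339, 404 and 442 CPM in ISC and 425, 401 and 363 CPM in AE. On the TMM scale the ranges of all 4 groups overlap, with means from 395 to 460 CPM. By counts over library totals, every AE library lay below every ISC library. The closest were young ISC library 3, with 6252 of 14133772 counts, and young AE library 2, with 6171 of 14695446. Between AE and ISC the log2 fold change was 0.06 ± 0.22 (SE, n = 3 per group; 95% confidence interval -0.44 to 0.56) in young mice. The aged value was -0.07 ± 0.18 (-0.47 to 0.33).

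*Nlrc4*, the sensor that oligomerises with NAIP proteins (chromosome 17, 74426295 to 74459108, minus strand), was at 39.1, 29 and 36.8 CPM in ISC and at 97.2, 88.1 and 103 CPM in AE of young mice. The aged libraries were at 26.8, 31.6 and 49.2 CPM in ISC and at 87.5, 102 and 129 CPM in AE. On the TMM scale all AE libraries lay above all ISC libraries at each age. By counts over library totals, AE and ISC overlapped in aged mice. There AE library 1 had 920 of 13815802 counts and ISC library 5 had 1107 of 16475043. The gene was 2.75-fold higher in AE of young mice (log2 1.46 ± 0.17, SE; FDR = 0.000267) and 2.81-fold higher in those of aged mice (log2 1.49 ± 0.24; FDR = 0.000284).

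*Naip6*, one of the NAIP receptors for flagellin (chromosome 13, 100281121 to 100317674, minus strand), was at 60.5, 35.7 and 42.6 CPM in ISC and at 182, 146 and 218 CPM in AE of young mice. Aged ISC held 31, 34.5 and 74.1 CPM, and aged AE 220, 247 and 381 CPM. The AE libraries again all lay above the ISC libraries. In log2 terms AE exceeded ISC by 1.97 ± 0.24 in young mice (FDR = 0.000342) and 2.53 ± 0.36 in aged mice (FDR = 0.00021). The relatives *Naip1*, *Naip2* and *Naip5* also passed at both ages, with log2 fold changes of 0.79, 1.41 and 3.20 in young and 0.49, 1.45 and 3.79 in aged mice.

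Per kilobase of annotated exon, the 4 *Naip* genes summed to 30.2 ± 5.1 CPM per kb (SD, n = 3) in ISC of young mice and 30.7 ± 8.1 in those of aged mice. The sum in AE was 128 ± 28 in young mice and 170 ± 48 in aged mice. *Naip5*, the main flagellin receptor of C57BL/6 macrophages, took 23.1% ± 2.2 of that sum in young ISC and 19.8% ± 1.5 in aged ISC. It took 50.1% ± 5.7 in young AE and 52.4% ± 3.0 in aged AE, and the ranges of ISC (18.8% to 25.7%) and AE (43.9% to 55.8%) did not overlap. The share of *Naip6* ranged from 17.2% to 27.6% in ISC and from 19.6% to 24.8% in AE, so these ranges overlap. *Naip1* took 22.4% to 31.6% in ISC and 7.15% to 11.9% in AE.

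**Figure D2:**
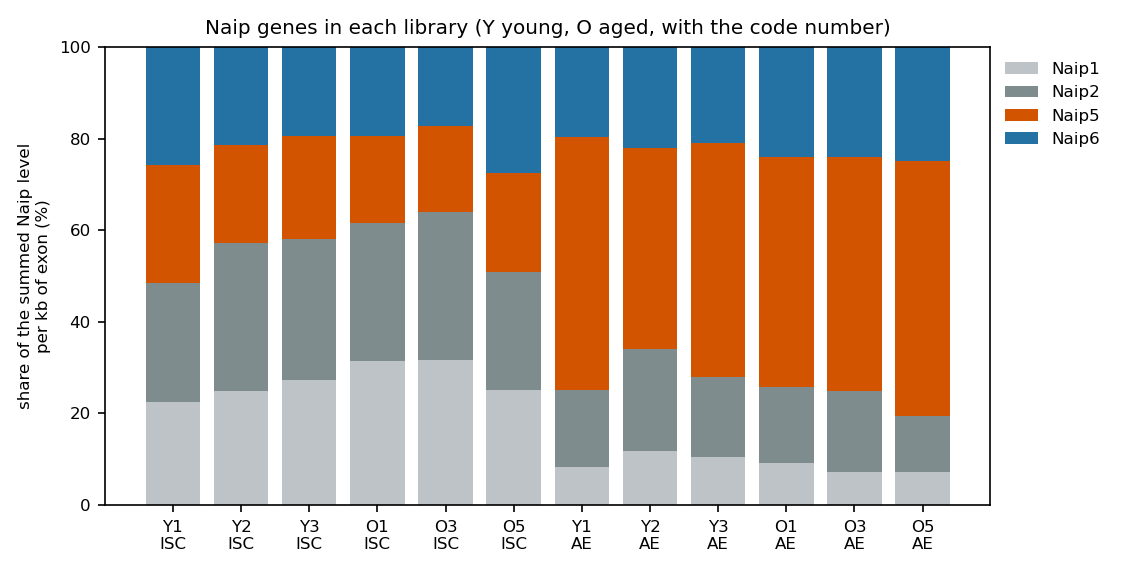
Share (%) of each *Naip* gene in the summed level per kilobase of exon, for each library, named by cell type and column code (Y young, O aged). *Naip5* takes 18.8% to 25.7% in ISC and 43.9% to 55.8% in AE.

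*Pycard*, the gene of the adaptor ASC (chromosome 7, 127989708 to 127993867, minus strand), was the only member lower in AE in these tests. It was at 291, 388 and 382 CPM in ISC and at 204, 230 and 83.1 CPM in AE of young mice. With age the values were 293, 358 and 280 CPM in ISC and 120, 75.9 and 75.9 CPM in AE. Every AE library lay below every ISC library, and young AE library 3 lay below the other young AE libraries. *Pycard* differed by a log2 fold change of -1.04 ± 0.36 in young mice (2.05-fold lower; FDR = 0.0386) and -1.85 ± 0.22 in aged mice (3.61-fold lower; FDR = 3.06e-05). The young call was lost without young ISC library 1, 2 or 3 or without young AE library 1 (log2 -1.16, -0.97, -0.98 and -1.20, with FDR of 0.0573, 0.104, 0.0986 and 0.0621). The summed stem cell markers of young AE libraries 1, 2 and 3 were 144, 506 and 47 CPM, and those of the aged AE libraries 50.2, 113 and 79.1 CPM. The 2 young AE libraries with the highest stem marker sums also had the highest *Pycard* of all AE libraries. Within aged AE, library 1 had the lowest stem marker sum, 50.2 CPM, and the highest *Pycard*, 120 CPM. The part of stem marker RNA in the *Pycard* values was not tested.

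*Casp1*, the effector protease of the canonical inflammasome (chromosome 9, 5298517 to 5307265, plus strand), was at 99.6, 104 and 125 CPM in ISC and 211, 204 and 167 CPM in AE of young mice. The aged mice had 113, 146 and 111 CPM in ISC and 225, 162 and 202 CPM in AE. On the TMM scale all AE libraries lay above all ISC libraries of their age. By counts over library totals, AE and ISC overlapped at each age. AE were higher by a log2 fold change of 0.82 ± 0.17 in young mice (1.77-fold; FDR = 0.00375) and 0.60 ± 0.18 in aged mice (1.51-fold; FDR = 0.0142). The aged call was lost without aged ISC library 1 (0.54, FDR = 0.0562) or aged AE library 1 (0.50, FDR = 0.0586).

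*Casp4*, next to *Casp1* on chromosome 9 (5308828 to 5336783, plus strand), was at 17.2, 14.8 and 10.7 CPM in ISC and 31.2, 26.6 and 14.3 CPM in AE of young mice. Aged libraries had 17, 21.8 and 29.4 CPM in ISC and 29.1, 19.1 and 35.6 CPM in AE. The groups overlap at each age. AE and ISC differed by 0.74 ± 0.32 (log2, SE) in young mice (FDR = 0.0749) and 0.22 ± 0.25 in aged mice (FDR = 0.465). With the column code as a replicate block the young value was 0.70 and passed (FDR = 0.0142), and it also passed without young AE library 3 (0.95, FDR = 0.0105).

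*Gsdmd*, the pore former (chromosome 15, 75862339 to 75867404, plus strand), had the largest log2 fold change of the members at each age. It was at 45.4, 37.2 and 58.1 CPM in ISC and 594, 449 and 595 CPM in AE of young mice. For aged mice the values were 27.2, 37.1 and 35.6 CPM in ISC and 672, 589 and 712 CPM in AE. The lowest AE library was thus far above the highest ISC library. The gene was 11.6-fold higher in AE of young mice (log2 3.54 ± 0.24; FDR = 6.14e-05) and 18.8-fold higher in those of aged mice (log2 4.23 ± 0.21; FDR = 1.74e-07).

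*Il18*, the cytokine that epithelial cells make as an inactive precursor (chromosome 9, 50554827 to 50581840, plus strand), was at 5.87, 9.36 and 21.3 CPM in ISC and at 80.8, 99.2 and 81 CPM in AE of young mice. Aged values were 4.15, 16.6 and 6.32 CPM in ISC and 84.6, 58.8 and 59.5 CPM in AE. ISC library 3 was the highest of the ISC libraries at each age, and no ISC library reached an AE library. The log2 fold change was 2.83 ± 0.45 in young mice (7.12-fold; FDR = 0.00181) and 2.85 ± 0.50 in aged mice (7.22-fold; FDR = 0.00174). Without ISC library 3 it was 3.51 in young and 3.63 in aged mice. Those ISC libraries also had the highest enterocyte marker sums of their age, 5206 CPM in young and 2774 CPM in aged mice, against 1957 and 1884 CPM in the other young and 795 and 1330 CPM in the other aged libraries. The part of enterocyte RNA in the ISC level of *Il18* was not tested.

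**Figure D3:**
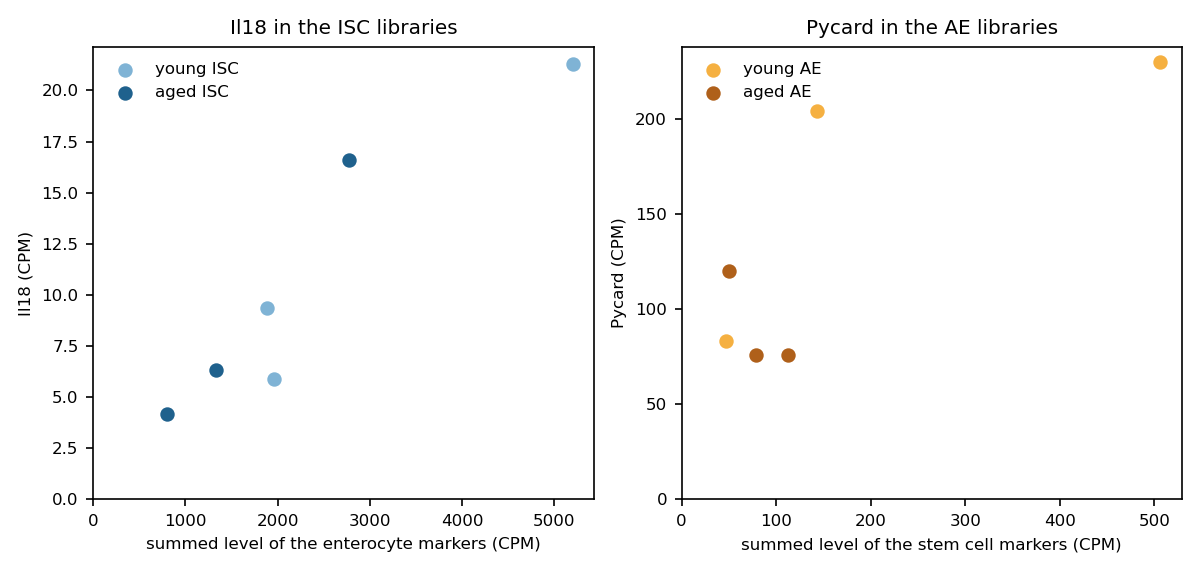
Left, *Il18* (CPM) in each of the 6 ISC libraries against the summed level of 6 enterocyte markers (CPM). Right, *Pycard* (CPM) in each of the 6 AE libraries against the summed level of 5 stem cell markers (CPM). *Il18* is highest in the ISC libraries with 5206 and 2774 CPM of enterocyte markers, and *Pycard* in the AE libraries with 506 and 144 CPM of stem cell markers. Within aged AE, *Pycard* is highest in the library with the lowest stem cell marker sum, 50.2 CPM.

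*Il18bp*, which encodes the secreted inhibitor of IL-18 (chromosome 7, 102014885 to 102018690, minus strand), was low in ISC, at 3.7, 2.1 and 1.4 CPM in young mice and 3.65, 1.13 and 2.27 CPM in aged mice. In AE it was at 20.4, 11.7 and 6.16 CPM in young mice and 11.7, 7.08 and 9.37 CPM in aged mice. On the TMM scale all AE libraries exceeded all ISC libraries. By counts over library totals, AE and ISC overlapped in young mice. There AE library 3 had 514 of 110794420 counts and ISC library 1 had 58 of 11893817. The log2 fold change was 2.39 ± 0.52 in young mice (FDR = 0.00542) and 1.86 ± 0.37 in aged mice (FDR = 0.00131). Per kilobase of exon, *Il18* exceeded *Il18bp* by 11.7- to 38.6-fold in AE and by 3.34- to 44.5-fold in ISC, so the ratio overlapped between the cell types. *Il1b* (chromosome 2, 129364570 to 129371139, minus strand), the other cytokine that caspase-1 matures, had 0 counts in all 6 ISC and all 3 aged AE libraries. In young AE it had 1, 0 and 4 counts, so it was not tested. Only the deepest library, young AE library 3, exceeded the 3 counts taken as the limit of detection.

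Some members share bases with another gene, and the sources do not say whether strand was used in counting. *Il18* overlaps *Bco2* by 355 bases on the other strand and *Tex12* (0 to 55 counts per library) by 4507, *Pycard* overlaps *Gm45205* by 599 and *Il18bp* overlaps *Numa1* by 80, so reads in these stretches cannot be told apart without strand. *Bco2* had 293 to 841 counts in ISC and 1478 to 17504 in AE, more than *Il18* in every library and higher in AE as *Il18* was, and its part in the *Il18* values was not tested. *Gm45205* had 0 to 33 counts per library, whereas *Numa1* had between 1703 and 25412 and *Il18bp* between 21 and 514.

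**Figure D4:**
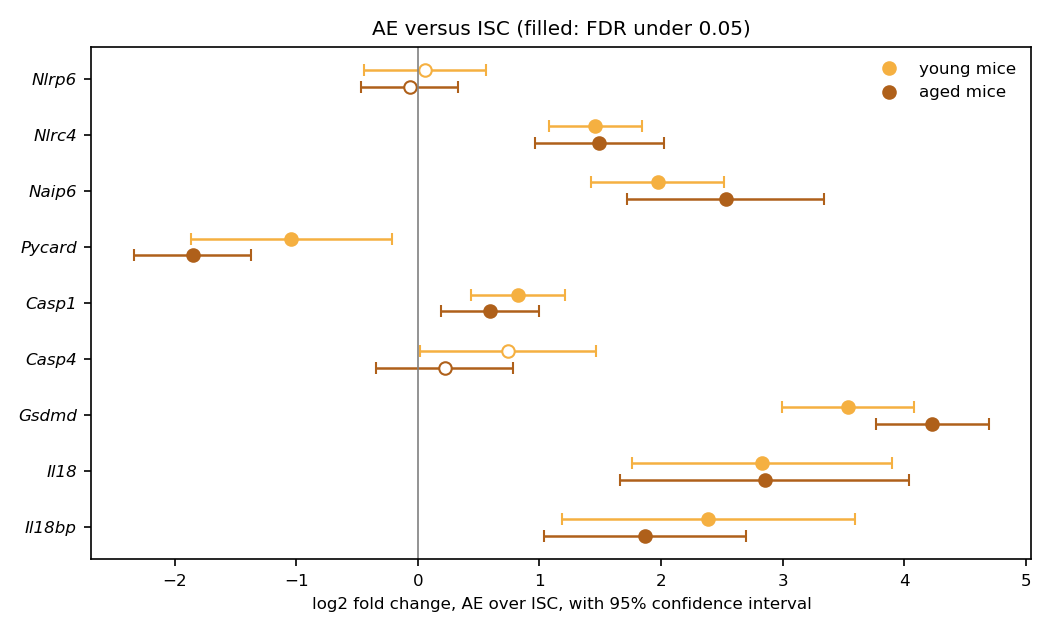
Log2 fold change of AE over ISC with its 95% confidence interval for the 9 members tested, in young and aged mice (n = 3 libraries per group). Filled points passed an FDR of 0.05. *Gsdmd* is the largest, at 3.54 and 4.23, *Pycard* is below 0 at each age, and the intervals of *Nlrp6* span 0.

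Exon bases were counted over all annotated transcripts of a gene (3800 for *Pycard*, 5081 for *Nlrp6* and 1497 for *Casp1*). The length of the mRNA present was not measured, and the order between genes depends on the length used. Ordered by level per kilobase of exon, *Pycard* (93 ± 14 CPM per kb, SD), *Nlrp6* (86.7 ± 17.4) and *Casp1* (73.2 ± 9) led in young ISC, and neighbours in that order overlapped. *Gsdmd* followed at 19.7 ± 4.4, below the range of the first 3. In aged ISC, *Casp1* (82.4 ± 13.4), *Pycard* (81.7 ± 11) and *Nlrp6* (77.8 ± 10.3) overlapped as well, and *Gsdmd* was at 14 ± 2.2. In AE the order was led by *Gsdmd*, at 230 ± 35 in young and 276 ± 26 in aged mice, above the range of *Casp1* (129 ± 16 and 131 ± 21). *Nlrp6* followed at 90.5 ± 14.5 and 78 ± 6.1 and overlapped with *Il18* at 84.4 ± 10.3 and 65.6 ± 14.2. *Pycard* was at 45.4 ± 20.6 in young and 23.9 ± 6.7 in aged AE. The ratio of *Gsdmd* to *Pycard* per kilobase was 0.153 to 0.249 in ISC of young and 0.148 to 0.203 in ISC of aged mice. It was 3.12 to 11.5 in AE of young and 8.94 to 15 in AE of aged mice. With exon lengths of 2377 bases (*Gsdmd*) and 3800 (*Pycard*), the ratio lay below 1 in all ISC and above 1 in all AE libraries. Where it stands relative to 1 depends on those lengths, whereas its order between libraries does not.

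The genes with the most similar pattern over the 12 libraries, by Pearson's r of log2 CPM among 12642 genes at 1 CPM or more on average, were taken for 3 members. For *Gsdmd* these were *Itpk1*, *Optn* and *Cdhr2*, each at r = 0.998. For *Il18* they were *Adh6a* (0.989), *Cib1* (0.987) and *Rbp2* (0.987). For *Nlrp6* they were *Smad1* (0.858), *Gm42547* (0.802) and *Ampd3* (0.787). These values describe 12 libraries that share cell type, and most of the variation of *Gsdmd* and *Il18* lies between ISC and AE.

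Promoters were read for the 9 members with an entry in RefSeq (GRCm38.p6), as the 250 bases before the start. *Gsdmd* was not among them. *Nlrc4* (higher in AE), *Pycard* (lower in AE) and *Casp4* (not called) are shown because their direction differed.
Nlrc4 (chr17:74459109-74459358, minus strand): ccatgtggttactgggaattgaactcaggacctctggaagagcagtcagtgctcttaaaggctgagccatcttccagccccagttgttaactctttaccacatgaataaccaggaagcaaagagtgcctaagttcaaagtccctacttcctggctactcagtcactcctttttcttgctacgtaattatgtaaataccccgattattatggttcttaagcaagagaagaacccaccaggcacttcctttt
Pycard (chr7:127993868-127994117, minus strand): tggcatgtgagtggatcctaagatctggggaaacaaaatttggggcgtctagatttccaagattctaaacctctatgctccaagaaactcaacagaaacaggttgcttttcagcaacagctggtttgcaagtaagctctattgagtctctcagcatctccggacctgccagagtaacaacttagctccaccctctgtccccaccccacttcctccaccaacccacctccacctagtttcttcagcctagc
Casp4 (chr9:5308599-5308848, plus strand): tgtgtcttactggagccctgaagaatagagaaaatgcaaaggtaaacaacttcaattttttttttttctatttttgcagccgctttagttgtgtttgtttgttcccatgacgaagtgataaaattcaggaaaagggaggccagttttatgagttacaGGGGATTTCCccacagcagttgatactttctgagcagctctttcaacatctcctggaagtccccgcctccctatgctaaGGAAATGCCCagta
Capitals mark 2 matches to an NF-κB motif, GGGNNTTTCC, in the *Casp4* promoter, 93 to 84 and 14 to 5 bases upstream of the first of 2 RefSeq starts, which lies inside the gene as the files give it. From the other start the same matches lie 104 to 95 and 25 to 16 bases upstream. This motif was searched on both strands and occurs in 1.41% of 32851 promoters of this length. The other motifs searched on both strands were GAAANNGAAA of interferon-stimulated response elements (2.98% of promoters), CAAAGNNCA of HNF4 (5.49%), AGATAA of GATA factors (9.99%) and TTTATNG of CDX factors (9.81%). AGATAA occurred in *Naip6* and TTTATNG in *Il1b*. The letters of the HNF4 and interferon motifs were in none of the 9. GC content of these windows was 44.4% for *Nlrc4*, 48.8% for *Pycard* and 41.6% for *Casp4*, against a median of 52.4% over all promoters.

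The other genes of the pathway were taken from a list of 78 names in 6 sets, of which 71 have a row. In young mice 30 were higher and 6 lower in AE of 55 tested, and in aged mice 28 were higher and 10 lower of 54. Over all genes tested the shares were 28.9% higher and 26.7% lower in young and 30.6% and 34.2% in aged mice, against which the counts of the sets, of 2 to 12 genes each, also have to be read. In total 28 were higher and 6 lower at both ages. The median log2 fold change of the list was 0.96 in young and 0.80 in aged mice, against 0.15 and -0.13 over all genes.

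Among sensors and their partners, 5 of 9 tested were higher and 2 lower at each age. Besides the *Naip* genes, *Nlrp1b*, a sensor of bacterial proteases, was higher by 2.58 ± 0.32 (log2, SE) in young and 2.63 ± 0.23 in aged mice. *Nlrp9b*, a sensor for rotavirus RNA in the gut, was higher by 5.37 ± 0.88 and 7.37 ± 0.98, but varied within AE, with means of 151 ± 111 CPM (SD) for young and 150 ± 109 CPM for aged mice. Its partner *Dhx9*, an RNA helicase, was lower at both ages (-1.28 and -1.31). *Nlrp3* was at 0 counts in 11 of 12 libraries.

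Among caspases and their inhibitors, 9 of 12 tested were higher in AE at each age, and 1 was lower in young and 3 in aged mice. *Casp8*, a caspase downstream of death receptors, was higher by 1.04 in young and 1.01 in aged mice (log2). *Serpinb1a*, an inhibitor of neutrophil proteases and inflammatory caspases, was higher by 2.06 and 2.31. *Casp12* was lower by 2.90 ± 0.78 in young and 3.39 ± 0.46 in aged mice on the log2 scale. It was at 7.12 ± 2.74 CPM (SD) in ISC and 1.23 ± 1.05 CPM in AE of young mice.

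Of 9 gasdermin and membrane rupture genes tested, 4 were higher at each age, and 1 was lower in young and 2 in aged mice. *Gsdma*, a gasdermin of barrier epithelia, had between 0 and 5 counts in ISC libraries and 167 to 2273 in AE, at 25.4 ± 9.7 CPM in young mice and 30.9 ± 14.3 CPM in aged AE. *Dfna5*, the older name under which gasdermin E is listed, was higher by 2.29 ± 0.22 in young and 2.77 ± 0.18 in aged mice. *Ninj1*, which ruptures the membrane after gasdermin pores form, was lower (-1.21 ± 0.20 and -1.16 ± 0.24). The paralogs *Gsdmc2* and *Gsdmc3* did not pass at either age, and *Gsdmc4* was lower in AE of aged mice (-1.31, FDR = 0.0261), against -0.18 (FDR = 0.861) in young mice. The *Gsdmc4* values of the ages differed by -1.01 (95% confidence interval -3.40 to 1.37) and did not pass (FDR = 1, edgeR). These 3 share 39% to 51.3% of their 50-base words with other genes, so their counts are uncertain.

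Of the IL-1 family ligands and decoys, 1 of 3 tested was higher in young and 1 of 2 in aged mice, and of the receptors and signal transducers 6 of 11 were higher and 2 lower in young mice and 4 higher and 2 lower in aged mice. *Il33*, an alarmin of barrier cells, was higher in AE by 4.29 ± 0.55 in young and 6.21 ± 0.36 in aged mice. *Il18r1*, the IL-18 binding chain of the receptor, was higher by 2.72 ± 0.50 and 2.36 ± 0.54, yet at a level of about 3 CPM in AE (3.04 ± 0.71 in young, 3.11 ± 1.78 in aged). Lymphocyte markers are also higher in AE, as given above, and their part in this receptor value was not tested. *Il1rap* (-1.72 and -1.76) and the kinase *Irak1* (-1.41 and -1.73) were lower, whereas *Irak2* (2.19 and 2.37) and the inhibitory receptor *Sigirr* (0.96 and 1.21) were higher. Among upstream triggers and the IL-22 receptor arm, 5 of 11 were higher at each age, with 0 lower in young and 1 in aged mice. In the IL-22 arm, which drives epithelial defence, *Il22ra1*, *Il10rb* and *Stat3* were higher by 2.70, 1.85 and 2.14 in young and 2.92, 2.11 and 2.37 in aged mice.

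Aged mice were compared with young mice in each cell type. With edgeR, 0 of 9 members passed in ISC, where 0% of 15552 genes tested did, and 0 of 9 in AE, where 0% of 16265 did. DESeq2 also called 0 of 9 members in each, beside 58 of 15552 genes tested in ISC and 18 of 16265 in AE. At an unadjusted P under 0.05, 2 of 9 members stood in ISC, beside 5.04% of all genes, and 2 of 9 in AE, beside 4.79%. For the difference of the age effects between AE and ISC, 0 of 9 members passed, where 0.00575% of 17377 genes did, and 1 of 9 had an unadjusted P under 0.05, beside 3.88%. An exact permutation test of 3 against 3 libraries could not give a P-value under 0.1.

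*Casp4* in ISC averaged 14.2 ± 3.3 CPM (SD) in young mice against 22.7 ± 6.3 CPM in aged mice, and the groups overlapped. Its log2 fold change was 0.68 (95% confidence interval 0.12 to 1.25; unadjusted P = 0.0231, FDR = 0.95, edgeR). *Gsdmd* was at 37.2 to 58.1 CPM in young mice and 27.2 to 37.1 CPM in aged ISC. These groups did not overlap, as was so for 8.84% of genes tested, although the closest libraries were at 37.2 and 37.1 CPM. Its log2 fold change was -0.49 (-0.94 to -0.03; unadjusted P = 0.0377, FDR = 0.975, edgeR). The enterocyte marker sum was 1884 to 5206 CPM in young ISC and 795 to 2774 CPM in aged ISC, and its part in the *Gsdmd* value was not tested. *Il18* in ISC (12.2 ± 8.1 CPM young, 9.03 ± 6.66 CPM aged) had a log2 fold change of -0.46 with an interval from -1.99 to 1.07. The other 6 members tested in ISC had log2 fold changes from -0.18 to 0.18. The T cell and intraepithelial lymphocyte markers summed to 7.83 to 21.2 CPM in young and 0.801 to 2.75 CPM in aged ISC, with *Cd3e*, *Cd3d*, *Cd8a* and *Nkg7* at or under 3 counts in each aged ISC library. The part of these cells in the age values of ISC was not tested.

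In AE, *Naip6* was at 146 to 218 CPM in young mice and 220 to 381 CPM in aged mice. The groups did not overlap, as was so for 10.9% of genes tested. Its log2 fold change was 0.65 (0.12 to 1.19; unadjusted P = 0.0214, FDR = 0.844, edgeR), and 0.39 without aged AE library 5, the highest. *Pycard* averaged 172 ± 78 CPM in young and 90.6 ± 25.5 CPM in aged AE. Young AE library 3, at 83.1 CPM, lay within the aged range of 75.9 to 120 CPM, so the groups overlap. The log2 fold change was -0.91 (-1.80 to -0.01; unadjusted P = 0.0473, FDR = 0.844, edgeR), and -1.24 without that library. *Gsdmd* had a log2 fold change of 0.29 (-0.10 to 0.67), *Il18* of -0.35 (-0.77 to 0.08), *Il18bp* of -0.38 (-1.35 to 0.59) and *Nlrp6* of -0.19 (-0.58 to 0.19). *Casp1*, *Nlrc4* and *Casp4* lay between 0.04 and 0.25.

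The age effect on *Gsdmd* differed between AE and ISC by 0.76 ± 0.28 (log2, SE; 95% confidence interval 0.17 to 1.36), with an unadjusted P of 0.0158 and an FDR of 1 in edgeR. For the other 8 members the difference ranged from -0.74 (*Pycard*) to 0.63 (*Naip6*), and the intervals included 0.

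**Figure D5:**
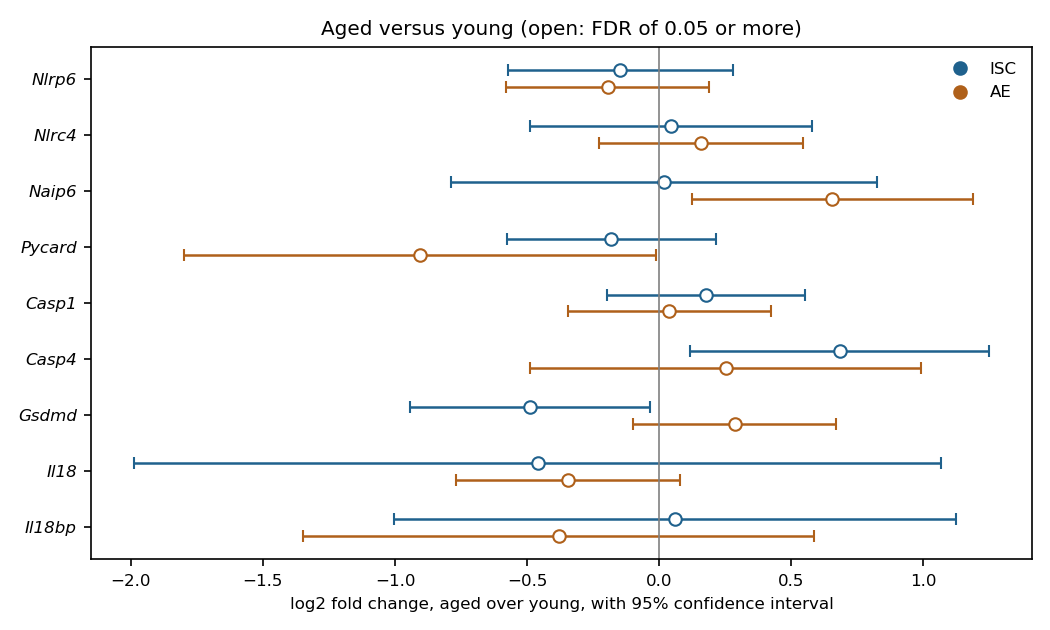
Log2 fold change of aged over young libraries with its 95% confidence interval for the 9 members tested, in ISC and AE (n = 3 libraries per group). All points are open, since no member passed an FDR of 0.05. The interval of *Il18* in ISC is the widest, from -1.99 to 1.07, and those of *Casp4* and *Gsdmd* in ISC and of *Naip6* and *Pycard* in AE do not include 0.

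Of the other pathway genes, 0 of 53 tested in ISC and 0 of 55 in AE passed by age with edgeR. At an unadjusted P under 0.05 there were 3 in ISC and 4 in AE, near the shares over all genes (5.04% and 4.79%). Over all genes tested, DESeq2 called 58 of 15552 in ISC and 18 of 16265 in AE. Of these pathway genes it called 1 in ISC and 0 in AE. That gene was *P2rx7*, the ATP-gated channel upstream of inflammasome activation, at 1.08, 0.964 and 2.02 CPM in young ISC and 5.19, 6.9 and 7.83 CPM in aged ISC. All aged ISC libraries lay above all young ones, with a log2 fold change of 2.28 ± 0.34 (FDR = 0.256, edgeR) and 2.29 ± 0.38 in DESeq2 (FDR = 7.49e-06). The study also measured *P2rx7* by RT-qPCR in crypts of a larger, separate cohort. There its average was higher in aged mice, but the change missed the study's significance threshold. In AE, the genes with the lowest unadjusted P in edgeR were *Birc3* (log2 0.45), *Dfna5* (0.50) and *P2rx7* (1.43), each with an FDR of 0.844. In ISC *P2rx7* was followed by *Il33* (log2 -1.90) and *Nlrp9b* (-2.08), with edgeR FDR of 0.881 and 0.968. For the difference of age effects 0 of 56 passed, and the lowest unadjusted P belonged to *Panx1* (0.51) and *Il33* (2.00), each with an FDR of 1. With the column code as a replicate block *Nlrp9b* passed (2.20, FDR = 0.0359).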

How the data were processed

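RNA from 12 libraries was read with a directional poly(A) kit, single end, 50 bases, with no molecular identifiers. The authors trimmed reads with Trim Galore 0.4.4, aligned them to GRCm38 with HISAT2 2.1.0 and deposited raw counts per gene, taken in SeqMonk over the exons of merged transcripts from uniquely mapped reads. The annotation release and the strand setting of the counting are not given in the sources used here. For 8 of 12 samples the parts of the title contradict each other on the group, and columns were therefore assigned to groups by their own names. The second deposited file holds the authors' list of age comparison results and was not used.

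Counts were tested with edgeR 4.0.16 in R 4.3.3 (estimateDisp, glmQLFit, glmQLFTest; TMM scaling; genes with 10 or more counts in total), fitting only the groups compared, or all 12 libraries for the difference of age effects. The planned design named these functions but not their options. Robust fitting and the non-legacy method were set after the files were seen, after several combinations had been run with values of the members in view. The choice followed the setting of an earlier analysis of these data, not the calls, and the fits without robust fitting, with the legacy method, and with the legacy method plus the block are given as added alternatives. Members and lists were chosen with earlier results of these data known. All members are named, as are pathway genes that passed at both ages (a selection of these is given with values), up to 3 with the lowest unadjusted P where none passed, the closest paralogs, and the 3 genes most like *Nlrp6*, *Gsdmd* and *Il18*. *Gsdmc4*, *Nlrp3* and *Dhx9* were described with their sets. Some genes of the pathway list are counted but not reported here by name. The fit was tested on simulated counts with 200 changed genes. Libraries of a group differed beyond sampling noise. The limit of 3 counts covers counting error only.

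Column codes are shared by ISC and AE of an age. Over 12642 genes, deviations from group means correlated at 0.213 to 0.431 in 6 of 6 same-code pairs and at -0.376 to 0.11 in the others, so the codes were used as a replicate block. Other alternatives were DESeq2 1.42.0, RLE and upper-quartile scaling, other filters, all 12 libraries in 1 fit, and leaving out each library. Sequences came from GENCODE M21 and RefSeq on GRCm38.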

Additional observations from a re-analysis of the deposited data

How the results depend on the processing

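The number of members called was 6 to 8 of 9 in young and 6 to 7 of 9 in aged mice for AE against ISC, and 0 for both age comparisons and for their difference, under all alternatives run. The calls that changed were *Pycard* and *Casp4* in young mice and *Casp1* in aged mice, given above, and the cause was not tested. *Pycard* of young mice kept its call with the replicate block (-1.15, FDR = 0.0456), and the block changed no call of a member but that of *Casp4*. The fits without robust fitting and with the legacy method, alternatives added after seeing the data, changed no count of members. With the legacy method and the block together, *Pycard* of young mice lost its call (-1.15, FDR = 0.0558), *Casp4* passed and the count stayed at 7. Among the other pathway genes, DESeq2 called 1 by age in ISC and the replicate block, with either method, called 1 for the difference of age effects, against 0 each. Over all genes, DESeq2 called 58 by age in ISC, 18 in AE and 43 for the difference, against 0, 0 and 1 with edgeR. The block called 19 for the difference (16 with the legacy method), a filter of 1 count called 1 in ISC, and 1 fit of all 12 libraries called 3 in ISC and 2 in AE.

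Some log2 fold changes near 0 changed sign. *Nlrp6* in AE against ISC was -0.057 with upper-quartile scaling in young mice, which shifted the median of all genes by -0.12. In aged mice it was 0.0186 with DESeq2, 0.0186 with RLE scaling and 0.0056 with all 12 libraries in 1 fit. *Il18bp* by age in ISC was -0.015 with DESeq2 and -0.00035 with the legacy method. Leaving out 1 library at a time, *Nlrp6* in AE against ISC ranged from -0.12 to 0.21 at young age and between -0.17 and 0.010 in aged mice. By age in ISC the ranges were -0.25 to 0.22 for *Nlrc4*, -0.48 to 0.25 for *Naip6*, -1.23 to 0.21 for *Il18* and -0.45 to 0.49 for *Il18bp*. By age in AE they were -0.00016 to 0.28 for *Nlrc4*, -0.067 to 0.15 for *Casp1*, -0.026 to 0.48 for *Casp4* and -0.75 to 0.13 for *Il18bp*. For the difference of age effects they were -0.21 to 0.082 for *Nlrp6*, -0.10 to 0.40 for *Nlrc4*, -0.58 to 0.87 for *Il18* and -0.88 to 0.058 for *Il18bp*. No paired analysis was possible for the age comparisons, because young and aged libraries come from different mice. A number that occurs in both young (Y) and aged (O) codes does not link them. Depth limits *Il1b*, at 0 to 4 counts per library.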
